A study of Mus musculus with 15 samples.

Results

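The genes that carry a cell through G2 and mitosis were examined in bulk RNA-seq of 4T1 cells treated with berry extracts or berry nanoparticles. The list held 39 genes, from cyclin B and CDK1 through the mitotic kinases, kinesins, kinetochore and spindle checkpoint, and it was matched by gene symbol. All 39 were found among the 40402 genes of the count table, and all 39 passed the filter of at least 1 CPM (counts scaled to library size) in at least 1 library, which kept 17647 genes. 4T1 is a mouse mammary carcinoma line derived from a BALB/c tumor and used as a model of triple-negative breast cancer, and the labels give its genotype as WT. The cells were left untreated (Untreated) or were treated once seeded. The treatments were blackberry extract (BLA), blueberry extract (BLU), blackberry gold nanoparticles (BLA-A) and blueberry gold nanoparticles (BLU-A). All were given at the same concentration according to the study. The time of harvest is not given in the sources used here.

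Each condition had 3 columns of counts, and these differed by less than the sampling noise. The chi-square per degree of freedom between the 3 columns of a condition was 0.0951 to 0.475, where separate samplings of 1 library would give about 1. They were therefore averaged and counted as 1 library, so each condition has n = 1 and a fold change compares 2 libraries with no replicate check and no p-value. The study's record of library preparation names the control, BLA, BLU and BLU-A once each and does not name BLA-A, so how the BLA-A library was prepared beside the others is not given in the sources used here. Library totals were 25613711 to 26956308 counts, and the members held 476 to 57122 counts per library. Intervals given with fold changes are exact 95% binomial (Clopper-Pearson) intervals of the ratio of 2 counts, and they cover counting error only. The labels give every sample its own batch date, so batch and condition cannot be told apart. Cytokeratins and Epcam and Cdh1, which mark the carcinoma line, summed to 948 to 1518 CPM over their 6 genes, although the basal keratin Krt14 had only 10 to 20 counts per library. The leukocyte list (Ptprc, Cd68, Adgre1) summed to 8.43 to 11.4 CPM and the endothelial list (Pecam1, Cdh5) to 1.37 to 2.79 CPM. The fibroblast list (Pdgfra, Pdgfrb, Dcn) summed to 89.3 to 103.2 CPM, nearly all of it Pdgfra. The receptor genes Esr1 and Pgr together gave 19.2 to 37.0 CPM in this line modelled as receptor-negative, nearly all of it Esr1. Pgr had only 5 to 36 counts per library. None of these lists had all of its genes at 0, and their part in the results below was not tested.

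Entry into mitosis is driven by cyclin B bound to CDK1, which the phosphatase CDC25C switches on and the WEE1 and PKMYT1 kinases hold off. Polo-like and Aurora kinases then build the spindle, kinesins and microtubule-binding proteins shape it, and the spindle checkpoint holds the anaphase-promoting complex (APC/C) until every kinetochore is attached. CDC20 and UBE2C let the APC/C mark securin and cyclin B for destruction, separase cuts cohesin, and the midzone proteins direct cytokinesis. Transcripts of these genes peak together in G2 and M, largely through the DREAM and MuvB complexes, B-MYB and FOXM1, which act at CHR promoter elements, and through NF-Y at CCAAT boxes. In a bulk library, fewer cells in G2/M and less of each transcript per cell cannot be told apart.

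**Figure D1:**
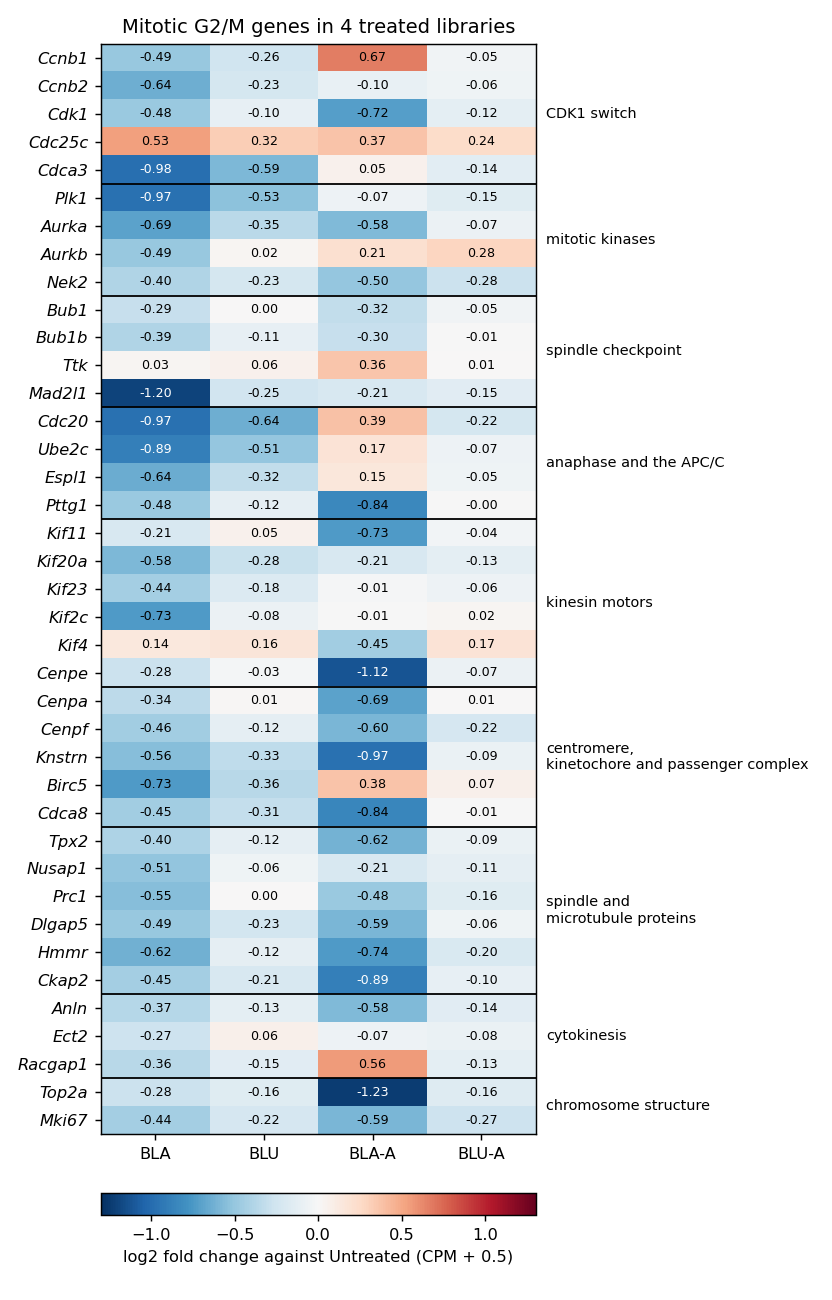
Each row is a member, grouped by role, and each column a treated library. Color and number give the log2 fold change against Untreated on CPM + 0.5. The BLA column is blue for 36 of 39 members, the BLU-A column is pale throughout, and the BLA-A column mixes values from -1.23 (Top2a) to 0.67 (Ccnb1).

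Compared with Untreated, the members were lower in BLA almost throughout, slightly lower in BLU and BLU-A, and moved apart from each other in BLA-A. In BLA, 36 of 39 members were below Untreated, with a median log2 fold change of -0.48 beside a median of -0.01 over all 17647 genes. In BLU, 30 were below Untreated and the median was -0.15. In BLU-A, 32 were below but the median was only -0.07 and the whole range ran from -0.28 (Nek2) to 0.28 (Aurkb). In BLA-A, 29 were below and the median was -0.32. The members spread there over a standard deviation of 0.48, against 0.31 in BLA and, for blueberry, 0.20 in BLU and 0.12 in BLU-A. Over all genes the quartiles were also widest in BLA-A, at -0.53 to 0.46, beside -0.42 to 0.41 in BLA and -0.22 to 0.26 in BLU-A. The members' own quartiles in BLA-A were -0.66 to 0.02, so a wider spread there was not particular to the members. Scaling by total counts alone moved the median of all genes in BLA-A from -0.01 to -0.18, and the members' median there from -0.32 to -0.52. Summed over the members, expression was 10204 CPM in Untreated, 7712 in BLA, 6875 in BLA-A, 9187 in BLU and 9257 in BLU-A. Mki67, Top2a and Anln, the 3 most abundant members, held much of this sum. Without them BLA was the lowest library, at 3838 CPM beside 3986 in BLA-A and 5206 in Untreated. That order of BLA and BLA-A rests on the TMM scaling factors, 1.01 for BLA and 0.904 for BLA-A, and is reversed without them.

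Taking members past 0.5 on the log2 scale, 15 of 39 (38.5%) were lower in BLA, where 21.5% of all genes were. In BLA-A, 17 of 39 (43.6%) were lower, beside 26.1% of all genes. In BLU, 4 of 39 (10.3%) were lower, beside 14.6% of all genes, which is below the background. In BLU-A no member was lower by that much, beside 12% of all genes. Higher values past 0.5 were seen for 1 member in BLA (background 21.2%), 2 in BLA-A (23.4%) and none in BLU (18.3%) or BLU-A (12.9%). Many genes past these thresholds had low counts. Among the 9771 genes with a mean of at least 10 CPM, which is closer to the members' own levels, the lower shares were 13.6% in BLA, 16.4% in BLA-A, 6.46% in BLU and 1.52% in BLU-A.

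Few members passed a log2 fold change of 1. Mad2l1 did so in BLA, 1 of 39 (2.56%), where 8.55% of all genes were that much lower. Top2a and Cenpe did so in BLA-A, 2 of 39 (5.13%), where 12.4% of all genes were. None did so in BLU or BLU-A, where 4.64% and 4.51% of all genes were. No member was higher by more than 1 in any treatment, beside 7.93% of all genes in BLA, 8.54% in BLA-A, 5.66% in BLU and 3.35% in BLU-A. Of the more abundant 9771 genes (mean of at least 10 CPM), 1.62% were lower by over 1 in BLA and 4.72% in BLA-A, so the members' shares there lay below the background of all genes and above that of these. Scaling by total counts gave 4 members lower by over 1 in BLA, beside 9.02% of all genes, and 6 in BLA-A, beside 15.4%. Of the genes past 1 in either direction in BLA-A, it raised the share that was lower from 59.2% to 71.7%.

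**Figure D2:**
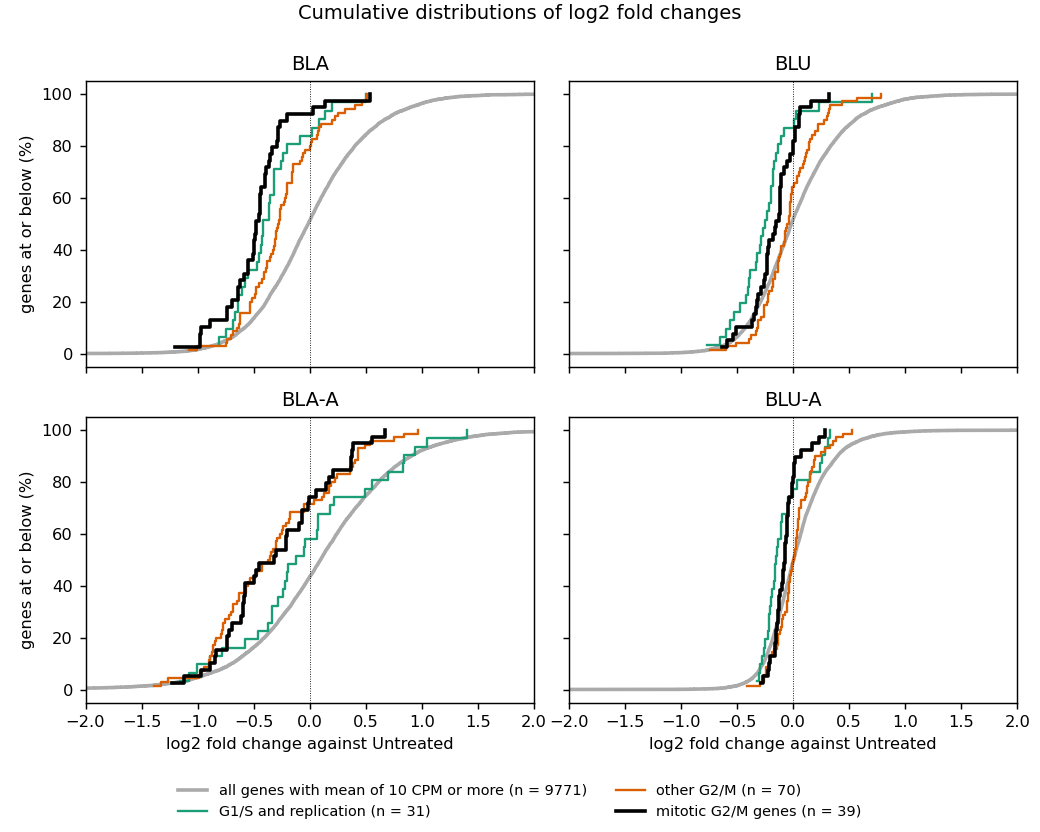
Each panel is 1 treated library. The x axis is the log2 fold change against Untreated, cut at -2 and 2, and the y axis the percentage of genes at or below it, for the 39 members (black), 70 other G2/M genes, 31 G1/S and replication genes and all 9771 genes with a mean of at least 10 CPM (grey). In BLA the black curve lies left of the grey over nearly its whole length, and in BLU-A the black curve is steep and close to 0.

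The order of BLA and BLU was alike for nearly all members, while the places of BLU-A and BLA-A varied. BLA was below BLU for 38 of 39 members, and BLA, BLU and BLU-A stood in that rising order for 23. Across the 5 libraries, the lowest level was in BLA for 19 members and in BLA-A for 18, and the highest was in Untreated for 22. The split between BLA and BLA-A depends on the scaling, as Aurka was lowest in BLA here but in BLA-A under scaling by total counts. 22 members were below Untreated in all 4 treatments. Only Cdc25c and Ttk were above it in all 4, and the values of Ttk in BLA, BLU and BLU-A were 0.06 or less, with the signs in BLA and BLU-A turning under scaling by total counts. The interval lay wholly below 0 for 36 members in BLA, 26 in BLA-A, 27 in BLU and 23 in BLU-A, and wholly above 0 for 2, 9, 4 and 3 in the same order. These counts show that counting error is small beside most differences, and say nothing of the spread between cultures, which these libraries do not measure. Of all genes kept, 50.9% were below Untreated in BLA, 50.8% in BLA-A, 50.5% in BLU and 49.7% in BLU-A. The orders of the libraries and the intervals were not worked out over all genes, so those counts are not read as particular to the members.

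The promoters shared features that the choice of members did not use. A window from 250 bases before to 50 bases after the canonical GENCODE start site was searched on both strands for TTTGAA, the core of the CHR element, and for CCAAT. The CHR core was found in 21 of 39 members (53.8%), beside 17.1% of all 21757 protein-coding promoters. The CCAAT box was found in 29 (74.4%), beside 39.9%, and both motifs in 19 (48.7%), beside 7.43%. The 70 other G2/M genes held both in 32.9% and the 31 G1/S and replication genes in 6.45%. In BLA the median log2 fold change was -0.48 for the 19 members with both motifs and -0.47 for the other 20. In BLA-A the medians were further apart, at -0.10 and -0.39, and the values overlapped over most of their range, from -1.23 to 0.56 with both motifs and from -1.12 to 0.67 for the rest. A match describes letters in this window and is not a mapped site.

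The 200 bases before the start site are shown for 5 members whose canonical start lies within 30 bases of the outermost annotated start. Cdc20 was the lowest of these in BLA, Top2a the lowest and Ccnb1 the highest in BLA-A, and Hmmr and Ccnb2 held the most matches among the rest. All are from the GRCm39 genome, written 5′ to 3′ on the strand of the gene, and capitals mark TTTGAA or CCAAT in either orientation. They lie on the minus strand at chr4:118294611-118294810 (Cdc20), chr11:98915042-98915241 (Top2a), chr13:100923117-100923316 (Ccnb1), chr11:40624281-40624480 (Hmmr) and chr9:70328875-70329074 (Ccnb2).
Cdc20: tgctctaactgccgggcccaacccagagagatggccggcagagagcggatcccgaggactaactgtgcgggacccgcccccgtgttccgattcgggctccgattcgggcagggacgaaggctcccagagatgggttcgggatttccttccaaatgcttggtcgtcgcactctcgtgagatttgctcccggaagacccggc
Top2a: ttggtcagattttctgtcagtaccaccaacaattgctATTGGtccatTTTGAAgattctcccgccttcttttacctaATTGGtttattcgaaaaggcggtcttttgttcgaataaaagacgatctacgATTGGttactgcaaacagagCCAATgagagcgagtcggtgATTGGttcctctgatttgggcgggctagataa
Ccnb1: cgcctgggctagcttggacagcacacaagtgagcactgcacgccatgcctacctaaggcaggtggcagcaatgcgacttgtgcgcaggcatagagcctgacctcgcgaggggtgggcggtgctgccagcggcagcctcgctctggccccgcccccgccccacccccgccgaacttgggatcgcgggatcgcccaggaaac
Hmmr: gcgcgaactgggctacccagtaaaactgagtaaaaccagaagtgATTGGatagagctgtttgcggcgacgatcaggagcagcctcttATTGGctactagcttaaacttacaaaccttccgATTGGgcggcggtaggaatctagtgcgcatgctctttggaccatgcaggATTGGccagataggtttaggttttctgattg
Ccnb2: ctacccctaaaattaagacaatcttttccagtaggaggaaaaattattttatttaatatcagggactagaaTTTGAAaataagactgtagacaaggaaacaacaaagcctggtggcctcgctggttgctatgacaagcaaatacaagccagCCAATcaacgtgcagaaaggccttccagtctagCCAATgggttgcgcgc
Top2a, the lowest member in BLA-A, had 5 CCAAT matches and 1 TTTGAA match in these 200 bases. Ccnb2 had 2 CCAAT matches and 1 TTTGAA match, and Hmmr had 4 CCAAT matches. Cdc20 and Ccnb1 had neither here, and each had 1 CCAAT match further downstream, within 50 bases after the start. Cdc20 also had 1 TTTGAA match at position -216, beyond the bases shown. Hmmr had 1 TTTGAA match within 50 bases after the start. Cdc20 and Hmmr thus count among the members with both motifs in the searched window, and Ccnb1 does not.

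The CDK1 switch was lower in BLA and split in BLA-A. Cdk1, the kinase itself, was at 175.6 CPM in Untreated, 125.7 in BLA, 106.6 in BLA-A, 163.2 in BLU and 160.9 in BLU-A. It was lowest in BLA-A, at a log2 fold change of -0.72 (interval -0.79 to -0.65), and next lowest in BLA, at -0.48. Ccnb1, the cyclin B1 that activates it, went the other way in BLA-A, with 42.1 CPM in Untreated, 29.8 in BLA, 67.1 in BLA-A, 35.0 in BLU and 40.6 in BLU-A. Its log2 fold change was -0.49 in BLA (-0.63 to -0.37) and 0.67 in BLA-A (0.56 to 0.79), the highest of any member in any treatment. The table also lists a pseudogene copy, Ccnb1-ps, whose reads may be hard to separate from those of Ccnb1. The copy was at 16.7 CPM in Untreated and 8.34 in BLA-A, and the sum of both gave a log2 fold change of 0.36 in BLA-A and -0.54 in BLA.

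Ccnb2, the other B-type cyclin on the list, had 116.4 CPM in Untreated, 74.7 in BLA, 108.5 in BLA-A, 99.1 in BLU and 111.9 in BLU-A. Its log2 fold change was -0.64 in BLA and only -0.10 in BLA-A. Cdca3, which helps degrade the WEE1 kinase at mitotic entry, stood at 37.7 CPM in Untreated, 18.9 in BLA, 39.1 in BLA-A, 24.9 in BLU and 34.2 in BLU-A. Its log2 fold change was -0.98 in BLA (-1.15 to -0.84) and -0.59 in BLU. Cdc25c, the phosphatase that activates CDK1, was the exception, with 17.9 CPM in Untreated, 26.1 in BLA, 23.3 in BLA-A, 22.4 in BLU and 21.2 in BLU-A. It was above Untreated in every treated library, by 0.53 in BLA (0.38 to 0.72) and 0.24 in BLU-A (0.06 to 0.42).

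All 4 mitotic kinases were below Untreated in BLA. Plk1, the polo-like kinase of mitotic entry and spindle assembly, was at 119.1 CPM in Untreated, 60.5 in BLA, 113.7 in BLA-A, 82.2 in BLU and 107.0 in BLU-A. Its log2 fold changes were -0.97 in BLA (-1.06 to -0.89), -0.07 in BLA-A (-0.14 to 0.01), -0.53 in BLU and -0.15 in BLU-A. BLA and BLU were thus apart from the other 3 libraries. Aurka, the Aurora kinase of the spindle poles, was lower in both blackberry libraries, at -0.69 in BLA and -0.58 in BLA-A, beside -0.35 in BLU and -0.07 in BLU-A. Aurkb, the Aurora kinase of the chromosomal passenger complex, was lower only in BLA, at -0.49, and stood at 0.21 and 0.28 in the nanoparticle libraries BLA-A and BLU-A. The value of Aurkb in BLA-A was 0.02 when libraries were scaled by total counts. Nek2, which separates the centrosomes, lay between -0.50 (BLA-A) and -0.23 (BLU).

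Among the spindle checkpoint genes, Mad2l1 stood apart. It encodes MAD2, the inhibitor that holds CDC20, and was at 56.4 CPM in Untreated, 24.2 in BLA, 48.6 in BLA-A, 47.5 in BLU and 50.8 in BLU-A. The BLA library lay far below the other 4, which were close together. The log2 fold change in BLA was -1.20 (-1.35 to -1.08), the lowest of all members in that library, while the other treatments gave -0.25 to -0.15. The checkpoint kinase Bub1 and the related Bub1b were at -0.29 and -0.39 in BLA, -0.32 and -0.30 in BLA-A, and between -0.11 and 0.00 in BLU and BLU-A. Ttk, the kinase MPS1 that starts the checkpoint signal, was near Untreated in BLA, BLU and BLU-A and at 0.36 in BLA-A (0.27 to 0.46).

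The APC/C genes were the lowest class in BLA and were mostly above Untreated in BLA-A. Cdc20, the APC/C activator, was at 81.8 CPM in Untreated, 41.4 in BLA, 107.0 in BLA-A, 52.5 in BLU and 70.0 in BLU-A. Its log2 fold change was -0.97 in BLA (-1.09 to -0.88), 0.39 in BLA-A (0.30 to 0.47), -0.64 in BLU and -0.22 in BLU-A. Ube2c, the ubiquitin-conjugating enzyme of the APC/C, was at 130.5 CPM in Untreated, 70.3 in BLA, 147.2 in BLA-A, 91.7 in BLU and 124.3 in BLU-A. Both genes were lower in the extract library than in the nanoparticle library of the same berry, and Cdc20 was still below Untreated in BLU-A. Espl1, which encodes separase, was at -0.64 in BLA and 0.15 in BLA-A. Under scaling by total counts the BLA-A values of Ube2c (0.17) and Espl1 turned to -0.02 and -0.04, while that of Cdc20 remained above 0, at 0.19. Pttg1, which encodes the separase inhibitor securin, took the opposite course in BLA-A. It was at 77.1 CPM in Untreated, 55.2 in BLA, 42.9 in BLA-A, 70.9 in BLU and 77.0 in BLU-A, a log2 fold change of -0.84 in BLA-A (-0.96 to -0.73) and -0.48 in BLA.

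**Figure D3:**
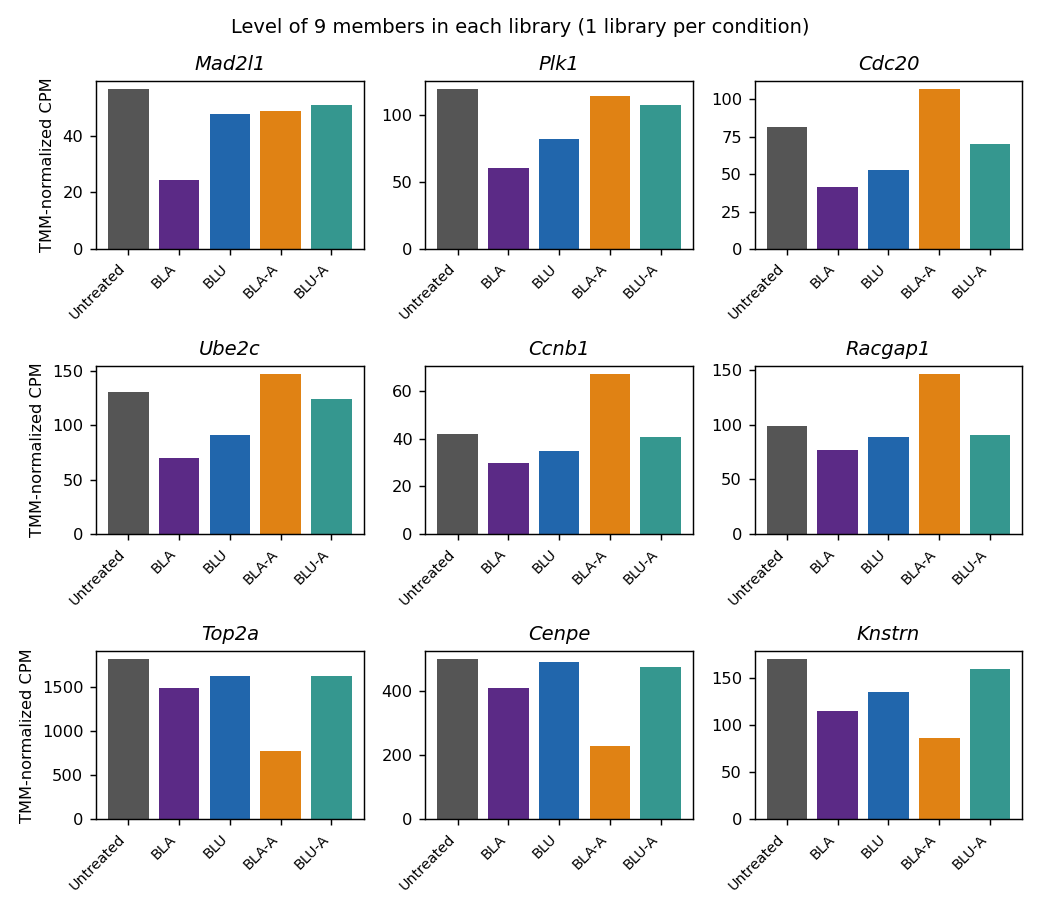
Bars give the TMM-normalized CPM of 9 members in each of the 5 libraries, with 1 library per condition and axes that start at 0. Mad2l1, Plk1, Cdc20 and Ube2c are lowest in BLA, Ccnb1 and Racgap1 are highest in BLA-A, and Top2a, Cenpe and Knstrn are lowest in BLA-A.

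The kinesin motors were lower by a moderate amount in BLA and spread widely in BLA-A. Cenpe, the kinetochore motor that carries chromosomes to the spindle equator, was at 500.3 CPM in Untreated, 411.7 in BLA, 229.6 in BLA-A, 490.7 in BLU and 474.9 in BLU-A. The BLA-A library held less than any other, with a log2 fold change of -1.12 (-1.17 to -1.08). Kif11, the motor that pushes the spindle poles apart, was at -0.73 in BLA-A and -0.21 in BLA. Kif2c, a microtubule depolymerase at centromeres, had the reverse profile, with -0.73 in BLA and -0.01 in BLA-A. Kif20a and Kif23, motors of the spindle midzone, were at -0.58 and -0.44 in BLA, and at -0.21 and -0.01 in BLA-A. Kif4, a chromosome-bound motor, was above Untreated in BLA (0.14), BLU (0.16) and BLU-A (0.17) and below it in BLA-A (-0.45).

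The centromere and kinetochore genes were lower in both blackberry libraries except for Birc5. Knstrn, a kinetochore protein also called SKAP, was at 169.9 CPM in Untreated, 115.5 in BLA, 86.6 in BLA-A, 135.2 in BLU and 159.9 in BLU-A. Its log2 fold change was -0.97 in BLA-A (-1.05 to -0.90) and -0.56 in BLA. Cdca8, which encodes borealin of the chromosomal passenger complex, was at -0.84 in BLA-A and -0.45 in BLA. Birc5, which encodes survivin of the same complex, was at 52.0 CPM in Untreated, 31.1 in BLA, 67.6 in BLA-A, 40.3 in BLU and 54.6 in BLU-A. Subunits of 1 complex thus lay on opposite sides of Untreated in BLA-A, with Birc5 at 0.38 (0.27 to 0.48) and Aurkb at 0.21. Cenpa, the histone H3 variant of centromeres, and the large kinetochore protein Cenpf were at -0.69 and -0.60 in BLA-A and at -0.34 and -0.46 in BLA.

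All 6 genes of the spindle and microtubule class were lower in BLA, BLA-A and BLU-A. Their log2 fold changes in BLA lay in a narrow range, from -0.62 (Hmmr) to -0.40 (Tpx2), and in BLA-A they ran from -0.89 (Ckap2) to -0.21 (Nusap1). Hmmr, a spindle assembly factor also known as a hyaluronan receptor, was at 171.9 CPM in Untreated, 111.4 in BLA, 102.8 in BLA-A, 158.6 in BLU and 149.4 in BLU-A. Tpx2, the activator of Aurora A, was at 344.5 CPM in Untreated, 261.4 in BLA, 224.4 in BLA-A, 317.4 in BLU and 324.7 in BLU-A. The blackberry libraries were the lowest 2 of 5 for each of these genes. Prc1, which bundles midzone microtubules, was at -0.55 in BLA and -0.48 in BLA-A but at 0.00 in BLU. Dlgap5, which stabilizes kinetochore fibers, was at -0.49 and -0.59 in the blackberry libraries BLA and BLA-A, and at -0.23 and -0.06 in BLU and BLU-A.

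The cytokinesis genes were close to each other in BLA, from -0.37 to -0.27, and far apart in BLA-A. Racgap1, a subunit of centralspindlin, was at 99.2 CPM in Untreated, 77.3 in BLA, 146.2 in BLA-A, 89.2 in BLU and 90.5 in BLU-A. It was the highest member after Ccnb1 in BLA-A, at 0.56 (0.49 to 0.64). Anln, the scaffold of the contractile ring, was at -0.58 in BLA-A, and Ect2, the exchange factor that centralspindlin recruits, at -0.07. Racgap1 and Ect2, which act at the same step, thus differed by more than their counting intervals there.

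Top2a, the topoisomerase that untangles sister chromatids, was at 1810 CPM in Untreated, 1489 in BLA, 769.9 in BLA-A, 1619 in BLU and 1617 in BLU-A. The BLA-A library held less than any other, at a log2 fold change of -1.23 (-1.26 to -1.21), the lowest of all members and treatments. Mki67, the proliferation marker that coats mitotic chromosomes, was at 2147 CPM in Untreated, 1578 in BLA, 1422 in BLA-A, 1844 in BLU and 1784 in BLU-A. It was lower in every treated library, at log2 fold changes of -0.44 in BLA, -0.59 in BLA-A, -0.22 in BLU and -0.27 in BLU-A.

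Tests across libraries asked whether the members differed beyond the spread between treatments. The 4 treated libraries were compared with the single untreated library by the quasi-likelihood test of edgeR, so the spread is that between treatments. No member was called at a Benjamini-Hochberg adjusted p under 0.05, where 4 of 17647 genes (0.0227%) were, and the smallest adjusted p of a member was 0.999 by this test. No member had an unadjusted p under 0.05, beside 481 genes, and DESeq2 called none of the members and 17 genes. Mad2l1, the lowest in BLA, had an average log2 difference of -0.40 ± 0.41 (SE). The test thus called no member, and it had a single untreated library. A missing call does not show that a member's difference from Untreated was smaller than its own spread between treatments.

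The nanoparticle libraries were compared with the extract libraries, with the berry giving the spread. By the quasi-likelihood test no member was called, where 0% of all genes were, and 5 members had an unadjusted p under 0.05, beside 1058 genes. They were Cdc20, Ube2c, Birc5, Cdca3 and Plk1, all higher with nanoparticles. Cdc20 had the largest difference, 0.91 ± 0.29 (SE) on the log2 scale with an adjusted p of 0.70 by the quasi-likelihood test, and was higher in both berries. DESeq2 called no member and 36 genes. When BLU-A was left out, 12 members (30.8%) were called beside 23.3% of all genes, which leaves the spread to be set by the 2 extract libraries.

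**Figure D4:**
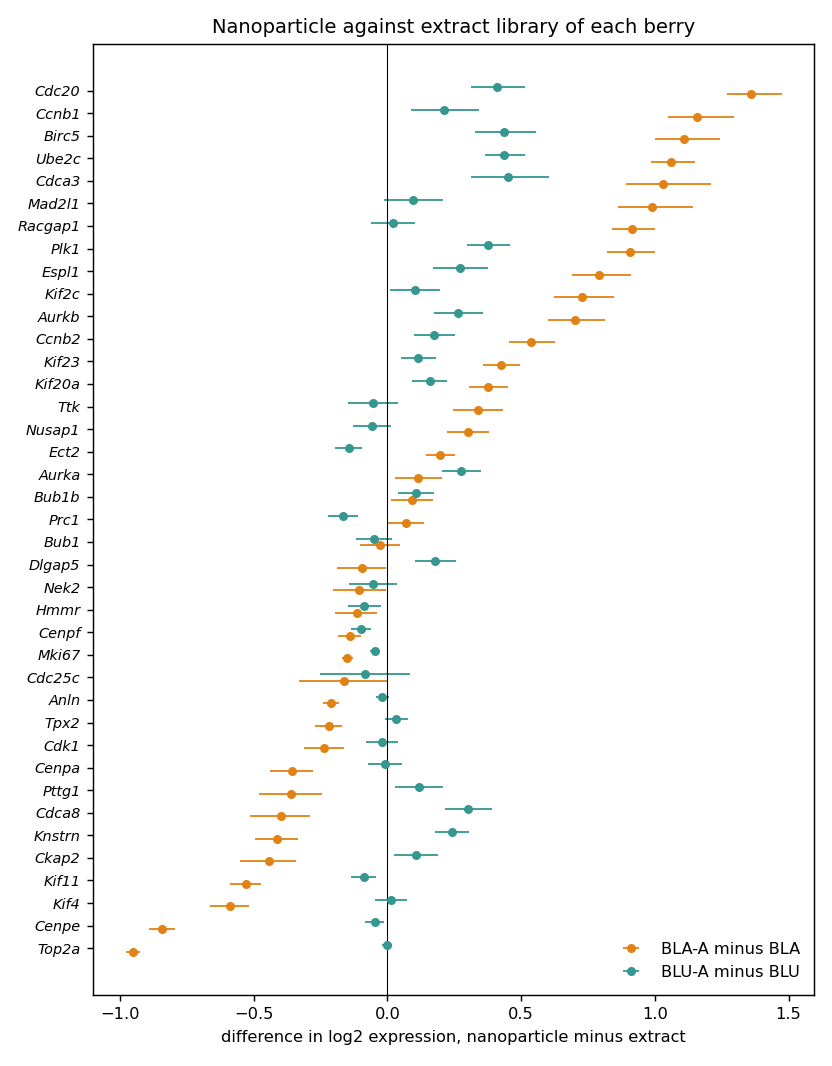
Points give the difference in log2 expression between the nanoparticle and the extract library of the same berry, blackberry in orange and blueberry in green, and lines the exact 95% counting interval. Cdc20 has the largest blackberry difference, 1.36, and Top2a the lowest, -0.95, while blueberry differences lie between -0.17 and 0.45.

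Blackberry nanoparticles gave higher values than blackberry extract for 20 members and lower values for 19. This split depends on the scaling. Aurka, higher in BLA-A here, was lower there under scaling by total counts, at -0.77 beside -0.73 in BLA, each against Untreated. The highest differences were those of Cdc20 (1.36, interval 1.27 to 1.47), Ccnb1 (1.16), Birc5 (1.11), Ube2c (1.06) and Cdca3 (1.03). The lowest were those of Top2a (-0.95, interval -0.98 to -0.93), Cenpe (-0.84), Kif4 (-0.59) and Kif11 (-0.53). The roles were split. Of the 6 motors 3 were higher with nanoparticles, among them Kif2c (0.73) and Kif20a (0.38), while Cdk1 (-0.24), Cdc25c (-0.16) and Pttg1 (-0.36) were lower. Blueberry nanoparticles gave higher values than blueberry extract for 23 members and lower for 16, with Cdca3 (0.45), Ube2c (0.44), Birc5 (0.43) and Cdc20 (0.41) highest. In both berries 16 members were higher and 12 lower, and 11 went opposite ways. These counts were not worked out over all genes, so they are not read as particular to the members.

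The blackberry libraries were compared with the blueberry libraries in the same way. No member was called by the quasi-likelihood test, where 0% of all genes were, and none had an unadjusted p under 0.05, beside 674 genes. DESeq2 called no member and 27 genes. Leaving out BLA gave 18 called members (46.2%) beside 28.2% of all genes. Leaving out BLA-A gave 5 (12.8%) beside 1.89% of all genes, and these were Mad2l1, Plk1, Aurkb, Ube2c and Kif2c, all lower with blackberry. In these fits the spread comes from 2 libraries of a single berry, and the lone blackberry library is assumed to vary like them.

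Other genes of the pathway gave a background for the members. Of 16 regulators of G2/M transcription, 13 were below Untreated in BLA, 10 in BLA-A, 9 in BLU and 10 in BLU-A, with medians of -0.16, -0.10, -0.03 and -0.02. Lin52, a subunit of MuvB, passed 1 in BLA and BLU, at 1.23 and 1.21. It was at 17.0 CPM in Untreated, 40.6 in BLA, 27.8 in BLA-A, 40.0 in BLU and 33.0 in BLU-A, and so above Untreated in all 4 treatments. Chosen after their values were seen, Foxm1, the forkhead factor of G2/M genes, was at -0.69 in BLA, 0.13 in BLA-A, -0.38 in BLU and -0.25 in BLU-A, and Nfyb, a CCAAT-binding subunit, at -0.79, -1.51, -0.45 and -0.38. The other NF-Y subunits differed from it, with Nfya between -0.16 and 0.08 and Nfyc at 0.62 in BLA, -0.01 in BLA-A, 0.67 in BLU and 0.45 in BLU-A. Of 70 other G2/M genes, 15 (21.4%) were lower by over 0.5 in BLA, beside 21.5% of all genes, and 30 (42.9%) in BLA-A, beside 26.1%. In BLU 3 (4.29%) were, beside 14.6%, and in BLU-A none, beside 12%. Among genes with a mean of at least 10 CPM, the shares were 13.6% in BLA, 16.4% in BLA-A, 6.46% in BLU and 1.52% in BLU-A. The medians were -0.28 in BLA, -0.36 in BLA-A, -0.04 in BLU and 0.00 in BLU-A. Pbk, a mitotic kinase also called TOPK, passed 1 in 2 treatments, at -1.08 in BLA and -1.33 in BLA-A, with 106.6 CPM in Untreated, 50.3 in BLA, 42.2 in BLA-A, 70.1 in BLU and 89.1 in BLU-A.

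The inhibitors of mitotic entry, CDK inhibitors and arrest genes had medians near 0 in BLA, BLU and BLU-A and were spread most widely in BLA-A. Their log2 fold changes ran from -0.57 to 0.60 in BLA and from -0.46 to 0.19 in BLU. In BLU-A they ran from -0.16 to 0.31, and in BLA-A from -2.22 to 1.71. Of 18 listed, 14 passed the filter. Their medians were 0.03 in BLA, 0.19 in BLA-A, 0.00 in BLU and 0.06 in BLU-A, and none passed 1 in 2 or more treatments. In BLA-A, 4 were higher by over 1, beside 8.54% of all genes, and 1 was lower by over 1, beside 12.4%. Named after their values were seen, the higher ones were Gadd45g (1.71), Cdkn1a (1.69), Ccng2 (1.13) and Pkmyt1 (1.01), and the lower one was Gadd45a (-2.22). Cdkn1a, which encodes the CDK inhibitor p21, was at 21.1 CPM in Untreated, 20.5 in BLA, 69.3 in BLA-A, 22.3 in BLU and 20.9 in BLU-A. Of 31 G1/S and replication genes, 26 were below Untreated in BLA, 18 in BLA-A, 27 in BLU and 23 in BLU-A, with medians of -0.41, -0.13, -0.25 and -0.16. Lower values in BLA, BLU and BLU-A were thus seen for replication genes as well as for the mitotic genes.

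Gene length and base composition moved with the members' values in BLA, BLU and BLA-A, and little or not at all in BLU-A. Across the 9493 genes with a mean of at least 10 CPM and an annotated length, Spearman's rho between gene span and log2 fold change was 0.52 in BLA, -0.03 in BLA-A, 0.55 in BLU and 0.37 in BLU-A, longer genes being higher in all but BLA-A. Over the 39 members it was 0.63 in BLA, -0.42 in BLA-A, 0.60 in BLU and -0.01 in BLU-A. For the G + C content of the transcript, rho had opposite signs in the extracts and in BLA-A. Over the members it was -0.45 in BLA, 0.40 in BLA-A, -0.53 in BLU and 0.17 in BLU-A, and over all these genes -0.11, 0.28, -0.22 and -0.03 in the same order. These are descriptions across genes of the same libraries, and genes are not independent replicates. The members had a median span of 26.8 kb, from 4.51 to 102 kb, beside 30.5 kb for all these genes, and a median G + C of 47.8% beside 49.7%.

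**Figure D5:**
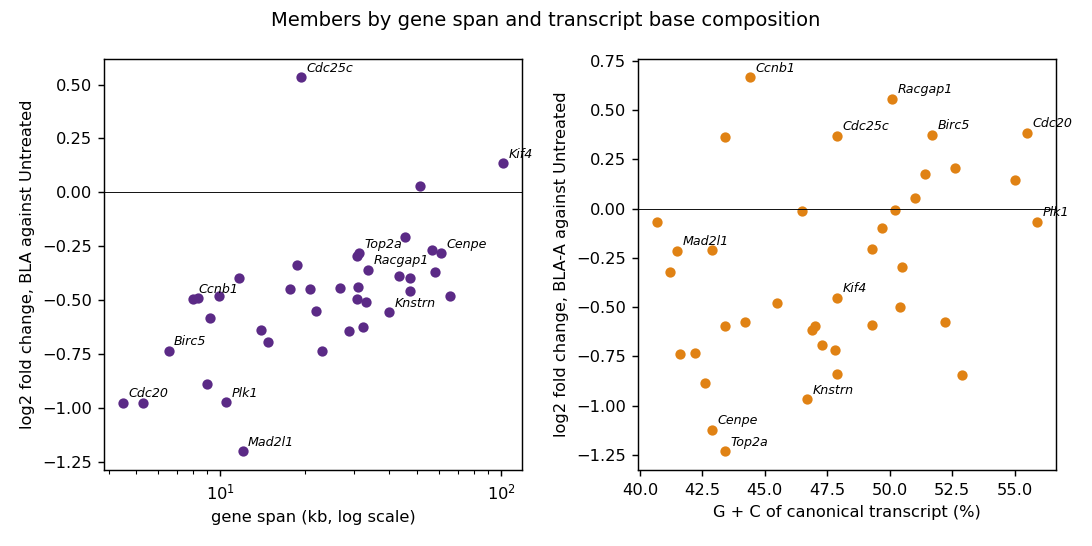
Each point is a member. The left panel sets the log2 fold change in BLA against gene span in kb on a log scale, and the right panel that in BLA-A against the G + C percentage of the canonical transcript. Short genes such as Cdc20 and Plk1 lie lowest on the left beside Mad2l1, and Top2a and Cenpe combine low G + C with the lowest values on the right.

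Within bins of gene span, the members' medians in BLA were below those of all genes in the bin. The 9493 genes were cut into 5 bins of gene span. In the bin of the shortest genes, the median was -0.66 for 10 members and -0.34 for all 1899 genes. In the next bins it was -0.55 for 9 members beside -0.17, -0.47 for 10 members beside -0.06, and -0.37 for 9 members beside 0.09. In the bin of the longest genes, 1 member was at 0.135 beside 0.381. In BLU the members' medians in the 5 bins, shortest genes first, were -0.325, -0.210, -0.171, -0.105 and 0.160. Those of all genes in BLU were -0.258, -0.155, -0.043, 0.087 and 0.346. In BLA-A, with 5 bins of G + C, the 13 members in the lowest bin had a median of -0.58 beside -0.07, and the 10 in the next bin -0.61 beside -0.05. In the middle bin the 9 members had a median of -0.10 beside 0.05. The 5 in the bin above had 0.15 beside 0.19, and the 2 in the highest 0.16 beside 0.42. A spline correction of all genes for both properties, chosen after seeing the data, gave members' medians of -0.47 in BLA, -0.28 in BLA-A, -0.20 in BLU and -0.08 in BLU-A. With it Top2a was at -1.10 in BLA-A, Ccnb1 at 0.65 and Mad2l1 at -1.15 in BLA, while Cdc20 in BLA-A was 0.05 in place of 0.39. The part of gene length and G + C in the members' values was not tested.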

How the data were processed

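Bulk RNA-seq was measured in 4T1 cells of 5 conditions. The authors deposited raw counts per gene without normalization. They removed ribosomal RNA, aligned reads to GRCm39 with STAR and counted them by strand on whole gene features in OmicsBox, so intronic reads are included. The submitters' processing notes also name DESeq2 1.36.0. The authors also deposited the fold changes, p-values and enrichment scores of their own comparisons, and these were not used.

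The labels number the columns of each condition 1 to 3. Same-numbered columns did not deviate together (mean correlation -0.00111 over 30 pairs), so the numbers were not used as a pairing. The columns of a condition were averaged and rounded. A gene was retained where any library reached 1 CPM, scaling used the TMM factors of edgeR 4.0.16, and 0.5 CPM was added before taking log2 fold changes, which understates changes of low genes. For groups of libraries, edgeR's quasi-likelihood test was used, and its p-values were adjusted over all genes (Benjamini-Hochberg, threshold 0.05). DESeq2 1.42.0, other scalings, filters and pseudocounts, single columns left out and a replicate block were alternatives. The scripts were tested on simulated data. A count of 3 corresponds to 0.111 to 0.117 CPM.

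Positions, transcripts and promoters came from GENCODE M39 on GRCm39, the build of the counts, and 92.6% of the genes kept had a value for length and G + C. By that annotation 6 members overlap another gene on the same strand, where reads can be uncertain, and 25 overlap a gene on the opposite strand. The members and lists were chosen with earlier results of these data known. All 39 members were named and other lists are given as counts. A gene of another list was named where it passed a log2 fold change of 1 in 2 or more treatments. Further genes of these lists, such as Foxm1, the NF-Y subunits and Cdkn1a, did not meet this rule and were named after their values were seen. R 4.3.3, Python 3.11.15, pandas 2.3.3, numpy 2.4.6 and scipy 1.17.1 were used.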

Additional observations from a re-analysis of the deposited data

Results flagged for a closer look

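The difference between the nanoparticle and the extract library ran in opposite directions in the 2 berries, by over 0.2 on the log2 scale in each, for 2 members. Knstrn was at -0.41 for BLA-A minus BLA and 0.24 for BLU-A minus BLU. Cdca8 was at -0.40 for BLA-A minus BLA and 0.30 for BLU-A minus BLU. With 1 library per condition the difference between the berries was not tested. Of all members, 11 had opposite signs in the 2 berries when values of any size were counted. Neither count was worked out over all genes.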

How the results depend on the processing

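The members' medians remained below 0 under all 10 alternatives in each of the 4 treatments. In BLA-A the median of -0.32 was -0.52 with scaling by total counts and -0.23 with no filter on low counts. The number of members lower by over 1 in BLA was 4 with scaling by total counts, and 1 to 2 without single columns. In BLA-A it was 6 with scaling by total counts and 1 with the correction for G + C and gene span. A threshold of 0.5 gave 15 lower and 1 higher in BLA, 4 lower in BLU, and 17 lower and 2 higher in BLA-A. Single fold changes changed sign 7 times of 156 with scaling by total counts, the largest of these being 0.17 in size as reported. They did so 11 times with the correction for G + C and gene span, up to 0.07, 9 times with DESeq2 size factors, up to 0.02, and 0 to 7 times under the others, up to 0.07.

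In the tests of libraries, treating the 15 columns as samples called 35 members for treated against untreated, 39 for nanoparticle against extract and 38 for blackberry against blueberry, beside 80.4%, 84.2% and 82.8% of all genes. The replicate block gave the same numbers, 35, 39 and 38, and the columns of a condition differ by less than sampling noise, so these p-values measure only the spread between columns. With no filter, 1 member (Cdc20) was called for nanoparticle against extract, 2.56% beside 1.86% of all genes. Leaving out 1 treated library gave 0 to 12 members for nanoparticle against extract, with 12 without BLU-A, beside 23.3% of all genes. It gave 0 to 18 for blackberry against blueberry, with 18 without BLA, beside 28.2% of all genes, and 5 without BLA-A, beside 1.89%. For treated against untreated it gave 0 members each time, while the number of all genes called went from 4 to 34 without BLA-A. The cause was not tested.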
